A study of Mus musculus with 12 samples.

Results

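A set of 8 plasma membrane amino acid transporter genes, *Slc7a5*, *Slc3a2*, *Slc7a1*, *Slc7a11*, *Slc1a4*, *Slc1a5*, *Slc38a1* and *Slc38a2*, was followed in 3T3-L1 cells depleted of *Paral1*. They were looked up by symbol among the 30176 genes that a probe set of the Affymetrix Mouse Transcriptome Array 1.0 names alone, and all 8 were found, each with 1 probe set. The set was selected on a measured value, the lower *Slc7a5* level of Paral1-siRNA cells at D2. The values of all 8 genes in that comparison are therefore given as a description with no test, and the 8 were tested only on the other arrays, at D9, and for the difference between the days.

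3T3-L1 is a mouse preadipocyte line that stores lipid after hormonal induction with dexamethasone, IBMX and insulin. Cells were transfected with siRNA at 100 nM, with a control sequence (Ctrl-siRNA) or with one that targets the lincRNA *Paral1* (Paral1-siRNA), either at D0, when differentiation began, with RNA taken at D2, or as differentiated cells at D7, with RNA taken at D9. Each of 6 numbered experiments, 1 to 3 at D2 and 4 to 6 at D9, gave 1 Ctrl-siRNA and 1 Paral1-siRNA array, so that the 12 arrays form 4 groups of 3. All groups come from this 1 cell line and all carry an siRNA. The labels name the reagent that the methods list as Paral1/2-siRNA, whereas the paper's text speaks of Paral1/1-siRNA, so which of them these arrays stand for is not settled.

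Cells take up amino acids through carriers of a few families. SLC7A5 (LAT1) imports leucine and other large neutral amino acids in exchange for intracellular ones and reaches the membrane only as a pair with the heavy chain SLC3A2 (CD98), which SLC7A11 (xCT), the cystine and glutamate exchanger, also needs. SLC1A4 and SLC1A5 (ASCT) exchange small neutral amino acids, SLC1A5 also glutamine. SLC38A1 and SLC38A2 concentrate glutamine and alanine with sodium, and SLC7A1 (CAT) brings in arginine and lysine. Leucine that enters the cell is sensed by the mTORC1 kinase complex at the lysosome, and many of these genes are known targets of ATF4, the transcription factor of the amino acid stress response, which binds a composite element with C/EBP factors, and of MYC, which binds the E-box.

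Promoter sequence was at hand for 5 of the 8 genes (6 windows, *Slc7a1* having 2), from RefSeq on GRCm38.p6 and without *Slc7a5*, *Slc1a5* and *Slc38a1*. The windows were searched on both strands for the composite element, written TGATGNAA, and for the E-box CACGTG, over 300 bases around each start. The composite element stood in the windows of *Slc7a11* and *Slc1a4*, against 3.97% of all 32851 windows of that length, and the E-box in 0 of the 6, against 7.15% of all windows. Both windows with the composite element are shown because they set these 2 genes apart among the 5 with a window, by sequence alone and without the arrays. Sequence outside the 300 bases was not searched. Each sequence runs from base -250 to base 10 around the start, 5′ to 3′ along the gene, with the matches in capitals, TGATGCAA where the gene's own strand carries the element and TTGCATCA where the opposite strand does.
Slc7a11, chr3:50443604-50443863, minus strand: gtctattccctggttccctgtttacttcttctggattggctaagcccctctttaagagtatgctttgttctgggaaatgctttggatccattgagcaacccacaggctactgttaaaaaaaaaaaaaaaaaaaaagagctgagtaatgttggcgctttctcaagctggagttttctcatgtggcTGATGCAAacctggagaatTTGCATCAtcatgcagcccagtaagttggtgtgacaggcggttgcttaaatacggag
Slc1a4, chr11:20332704-20332963, minus strand: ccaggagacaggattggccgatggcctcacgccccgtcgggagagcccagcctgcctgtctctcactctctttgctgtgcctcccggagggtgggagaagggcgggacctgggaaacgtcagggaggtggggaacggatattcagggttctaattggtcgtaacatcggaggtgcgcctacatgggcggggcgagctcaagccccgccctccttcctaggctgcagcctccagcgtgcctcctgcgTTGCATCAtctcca
In *Slc7a11* the matches lay at bases -66 to -59 and -47 to -40, and in *Slc1a4* at bases -4 to 4. A match is a description of the letters and not a measured binding site.

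The values are deposited log2 values, on which a difference of 1 is a 2-fold change. On each array the brightest of the background probe sets, which match no gene, lay between 5.84 and 7.02 and served as the limit of detection. *Slc7a5*, *Slc3a2*, *Slc7a1*, *Slc1a4*, *Slc1a5* and *Slc38a2* were above it on all 12 arrays, as were 29% of all genes. *Slc7a11* was above it on 2 arrays and *Slc38a1* on 1, so that their values are near background and carry no fold change. Levels of different genes are not compared, since each probe set has its own brightness.

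The labels of the cells were set against marker genes. The mean log2 value over the 12 measured white adipocyte markers (their sum divided by 12) was 7.31 to 10.90 in D2 Ctrl-siRNA cells and 6.79 to 9.78 in D2 Paral1-siRNA cells, and 14.70 to 15.13 and 14.71 to 15.23 at D9. Over the 9 measured markers of dividing cells it was 8.57 to 10.31 and 8.41 to 9.83 at D2, and 5.62 to 6.40 and 5.79 to 6.78 at D9. The mean over the 6 measured preadipocyte markers did not set the days apart. It was 9.01 to 9.86 and 9.19 to 9.79 at D2, and 9.25 to 9.89 and 9.26 to 9.67 at D9. All 7 endothelial markers were below the limit of detection on every array, as were 5 of the 8 macrophage markers. Experiment 1 stood apart at D2: *Fabp4*, the lipid carrier of fat cells, measured 7.33 and 6.79 there in Ctrl-siRNA and Paral1-siRNA cells, and 10.20 to 14.96 on the other D2 arrays. *Mki67*, which cycling cells express, was also lower in experiment 1, at 8.39 and 8.61, against 11.42 to 12.98 in experiments 2 and 3.

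At D2, *Slc7a5* measured 10.72, 13.20 and 10.94 in the Ctrl-siRNA cells of experiments 1, 2 and 3, and 10.42, 10.97 and 8.80 in the Paral1-siRNA cells. The Paral1-siRNA array was the lower one in all 3 experiments, and the groups overlapped, because the Paral1-siRNA cells of experiment 2 lay above the controls of experiments 1 and 3. The Ctrl-siRNA cells of experiment 2 stood far above all other arrays and the Paral1-siRNA cells of experiment 3 below them. The differences within experiments were -0.29, -2.23 and -2.14, and the mean difference was -1.55 (SE 0.83, n = 3 arrays per group), a 2.94-fold lower level. It became -0.76 when the Ctrl-siRNA array of experiment 2 was left out, -0.92 when the Paral1-siRNA array of experiment 3 was, and -2.18 when both arrays of experiment 1 were. In these RNA samples, fewer cells that express a gene and less RNA of it per cell cannot be told apart.

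The mean over the white adipocyte markers was lower with Paral1-siRNA in each D2 experiment, as *Slc7a5* was. On the D2 arrays both were highest in the Ctrl-siRNA cells of experiment 2. The marker mean was lowest in the Paral1-siRNA cells of experiment 1, where *Slc7a5* measured 10.42, and *Slc7a5* in those of experiment 3, at 8.80. Of the 12 measured, 10 were lower with Paral1-siRNA, all 10 by at least 1.5-fold, and their mean log2 values were 7.31, 10.90 and 10.53 in Ctrl-siRNA cells and 6.79, 9.78 and 7.97 in Paral1-siRNA cells of experiments 1, 2 and 3. Of all 30176 genes, 13656 were lower at D2, and of the 9 dividing cell markers 8 were, with a median difference of -0.39. Their part in the *Slc7a5* values was not tested.

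*Slc7a1*, the arginine and lysine carrier, had the pattern closest to *Slc7a5* among the other 7 genes over all 12 arrays, though not over the D2 arrays alone. Its values at D2 were 9.02, 10.80 and 10.01 with Ctrl-siRNA and 8.75, 9.70 and 8.90 with Paral1-siRNA. Again the Paral1-siRNA array was lower in each experiment, the Ctrl-siRNA cells of experiment 2 were the highest, and the groups overlapped. The differences within experiments were -0.27, -1.10 and -1.11, with a mean of -0.83 (SE 0.48), a 1.77-fold lower level. The mean became -0.40 when the control of experiment 2 was left out and -1.29 when that of experiment 1 was.

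*Slc3a2*, the heavy chain that carries SLC7A5 to the membrane, measured 14.14, 13.25 and 13.23 with Ctrl-siRNA and 13.60, 12.79 and 12.87 with Paral1-siRNA at D2. The spread within experiments was narrow, at -0.53, -0.45 and -0.36, whereas the 2 groups overlapped because both arrays of experiment 1 were high. The mean difference was -0.45 (SE 0.33), a 1.36-fold lower level, and it became -0.15 when the control of experiment 1 was left out and -0.71 when its Paral1-siRNA array was. With pairs kept whole it moved less, to -0.41, -0.45 and -0.49 without both arrays of experiment 1, 2 or 3. The light chain *Slc7a5* thus ran lowest against its control in experiments 2 and 3 and the heavy chain in experiment 1.

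*Slc1a5*, the main glutamine exchanger of growing cells, was not of 1 sign across the D2 experiments. It measured 11.39, 12.95 and 12.16 with Ctrl-siRNA and 11.50, 12.45 and 10.85 with Paral1-siRNA. The pair of experiment 1 differed by 0.11, that of experiment 2 by -0.50 and that of experiment 3 by -1.31, and the groups overlapped. The mean difference was -0.57 (SE 0.53), a 1.48-fold lower level, and it ran from -0.99 to -0.17 when single arrays or experiments were left out, the ends being without the Paral1-siRNA array and without the control of experiment 2.

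*Slc1a4*, its relative that carries serine and alanine and a gene with the composite element in its promoter window, was the 1 gene of the 8 that was higher with Paral1-siRNA in all 3 D2 experiments. Its values were 8.49, 7.62 and 7.45 with Ctrl-siRNA and 8.91, 7.67 and 7.85 with Paral1-siRNA, with differences of 0.42, 0.05 and 0.40. The groups overlapped, and the mean difference of 0.29 (SE 0.41) became 0.61 when the control of experiment 1 was left out and -0.09 when its Paral1-siRNA array was.

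*Slc38a2*, the sodium-coupled alanine and glutamine carrier that cells make more of when amino acids run short, measured 13.05, 14.12 and 13.92 with Ctrl-siRNA and 12.98, 13.95 and 14.06 with Paral1-siRNA at D2. Experiment 1 was lowest in both groups, and the mean difference was -0.035 (SE 0.39). Its neighbour on chromosome 15, *Slc38a1*, ran from 5.47 to 6.37 with Ctrl-siRNA and from 5.62 to 6.32 with Paral1-siRNA (mean difference 0.067, SE 0.28). *Slc7a11*, which has 2 composite elements in its window, ran from 5.34 to 5.88 and from 5.15 to 5.90 (mean difference -0.12, SE 0.24). Both of the latter genes were at background on nearly every D2 array, *Slc38a1* being above it on 1 of 6 and *Slc7a11* on 0. The sign of all 3 turned with the arrays left out, with ranges of -0.36 to 0.31 for *Slc38a2*, -0.15 to 0.31 for *Slc38a1* and -0.31 to 0.068 for *Slc7a11*.

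**Figure D1:**
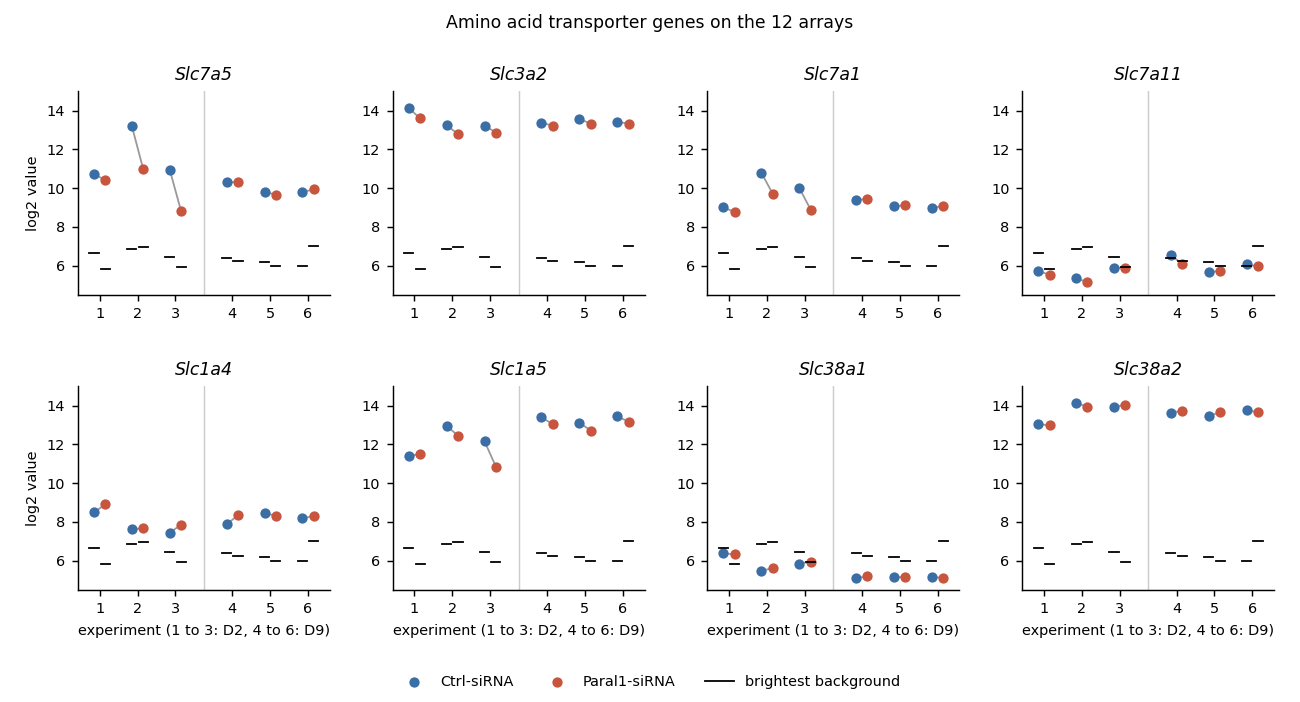
Log2 value of the 8 transporter genes on each of the 12 arrays, by experiment, with 1 Ctrl-siRNA (blue) and 1 Paral1-siRNA (red) point per experiment joined by a line; the black dash beside each point is the brightest background probe set of that array. *Slc7a5* and *Slc7a1* are highest in the Ctrl-siRNA cells of experiment 2, at 13.20 and 10.80, and *Slc7a11* and *Slc38a1* lie at the background.

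Counted together at D2, 6 of the 8 genes were lower and 2 higher with Paral1-siRNA, with a median difference of -0.28, beside a median of 0.015 over all 30176 genes. Of the 8, 3 were lower in all 3 experiments, beside 14.6% of all genes, and 1 was higher in all 3, beside 18.8%. The groups overlapped for all 8, and failed to overlap for 2.12% of all genes as lower and 3.07% as higher. At least 1.5-fold lower were 2 of the 8, *Slc7a5* and *Slc7a1*, beside 1.26% of all genes, and 0 were at least 1.5-fold higher, beside 1.12%. These counts come from the comparison on which the set was chosen and nothing is read from them.

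**Figure D2:**
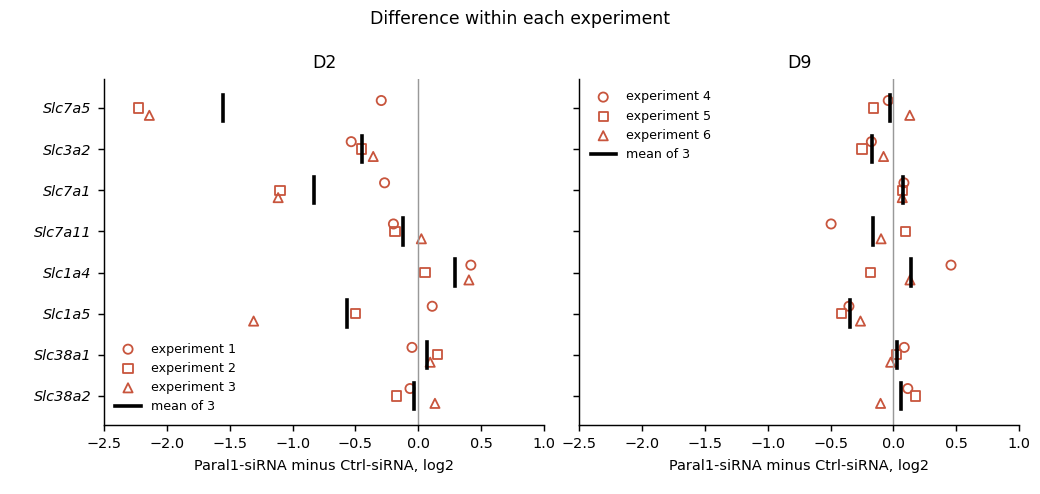
Paral1-siRNA minus Ctrl-siRNA on the log2 scale within each experiment for the 8 genes, at D2 (left) and D9 (right); open symbols are the 3 experiments of a day and the black bar is their mean. The D2 points of *Slc7a5* reach -2.23, and all D9 points of the 8 genes lie between -0.50 and 0.46.

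In differentiated cells at D9, on arrays that had no part in the choice of the genes, none of the 8 transporters passed the test for a difference between the siRNAs. *Slc7a5* measured 10.33, 9.82 and 9.80 with Ctrl-siRNA in experiments 4, 5 and 6 and 10.29, 9.66 and 9.93 with Paral1-siRNA. The groups overlapped and the pairs differed by -0.04, -0.16 and 0.13. The difference was -0.024 (SE 0.22, 95% confidence interval -0.54 to 0.50, adjusted p = 1.00, limma).

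*Slc3a2* was the 1 gene of the 8 whose groups did not overlap at D9. It measured 13.39, 13.58 and 13.41 with Ctrl-siRNA and 13.21, 13.33 and 13.34 with Paral1-siRNA, each Paral1-siRNA array lying below all 3 controls. Of all genes, 2.5% did not overlap in that direction and 4.66% in the other. The difference was -0.17 (SE 0.10, 95% confidence interval -0.40 to 0.06, adjusted p = 1.00, limma), and the exact two-sided permutation test gave p = 0.1, the smallest that 3 arrays against 3 can give. Neither used the pairing of the arrays by experiment. With the experiment as a block, the SE was 0.090, the unadjusted p 0.111 and the adjusted p 0.762 in limma.

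*Slc1a5* was lower with Paral1-siRNA in all 3 D9 experiments as well, as were 13% of all genes. Its values were 13.40, 13.13 and 13.44 with Ctrl-siRNA and 13.04, 12.72 and 13.18 with Paral1-siRNA, and the pairs differed by -0.35, -0.41 and -0.26. The groups overlapped, since the lowest control, of experiment 5, was under the Paral1-siRNA cells of experiment 6. The difference of -0.34 (SE 0.15, 95% confidence interval -0.72 to 0.03) had an unadjusted p of 0.0653 and an adjusted p of 1.00 in limma. With the experiment as a block, which uses the pairing, its SE was 0.089, the unadjusted p 0.00865 and the adjusted p 0.663.

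*Slc7a1* differed at D9 by 0.08, 0.07 and 0.07 within experiments 4, 5 and 6, in the direction opposite to D2 and by less than the spread between arrays of 1 group. It measured 9.37, 9.05 and 9.00 with Ctrl-siRNA and 9.46, 9.12 and 9.07 with Paral1-siRNA (difference 0.074, SE 0.15, 95% confidence interval -0.30 to 0.45, adjusted p = 1.00, limma). The groups overlapped, both arrays of experiment 4 being the high ones. Of all genes, 16.5% were higher in all 3 D9 experiments.

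The remaining genes also overlapped between the siRNAs at D9. *Slc1a4* measured 7.88, 8.48 and 8.18 with Ctrl-siRNA and 8.34, 8.30 and 8.31 with Paral1-siRNA (difference 0.14, SE 0.16, interval -0.24 to 0.52). *Slc38a2* measured 13.63, 13.47 and 13.76 and then 13.74, 13.65 and 13.66 (difference 0.062, SE 0.10, interval -0.19 to 0.31). Near background, *Slc7a11* differed by -0.17 (SE 0.24) and *Slc38a1* by 0.030 (SE 0.080).

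Over the 8 genes, 4 were lower and 4 higher with Paral1-siRNA at D9, with a median difference of 0.0031, beside 0.015 over all genes. In limma, 0 of the 8 passed an adjusted p under 0.05, 0 an unadjusted p under 0.05, and 0 the joint limits of a 1.5-fold change and an unadjusted p under 0.05 by limma or by the methods' t-test. The shares of all genes were 0% at an adjusted p under 0.05 (0 of 30176), 1.11% lower and 1.46% higher at an unadjusted p under 0.05, and 0.252% (76 genes) at the joint limits. With the experiment as a block, 1 of the 8, *Slc1a5*, had an unadjusted p under 0.05, beside 3.69% of all genes lower and 3.18% higher, and 0 passed after adjustment. The D9 arrays of 1 group lay closer together than those at D2: the SD of *Slc7a5* was 0.30 and 0.32 in the 2 siRNA groups at D9 and 1.37 and 1.13 at D2, and that of *Slc3a2* 0.10 and 0.07 against 0.52 and 0.45. Of all 30176 genes, 16445 were higher with Paral1-siRNA at D9 and 13731 lower. All 9 dividing cell markers were higher (median 0.22), as were 8 of 8 macrophage and 7 of 7 endothelial markers, nearly all at background, whereas 5 of the 6 preadipocyte markers were lower (median -0.27). Their part in the transporter values was not tested.

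Between the days, averaged over both siRNAs, 2 of the 8 genes passed the test. *Slc1a5* rose and *Slc38a1* fell, whereas 6 did not pass. Of all genes, 14.7% passed as higher at D9 and 25.7% as lower, and the median over all genes was -0.18. The median over the 8 was 0.018. D2 and D9 are separate experiments, and the sources used here do not say whether both days were normalized together, so day and batch cannot be told apart.

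*Slc1a5* had experiment means, each over its 2 arrays, of 11.45, 12.70 and 11.51 at D2 and 13.22, 12.92 and 13.31 at D9. Every D9 experiment was above every D2 experiment, as held for 19.2% of all genes, and experiment 2 came closest. The difference was 1.27 (SE 0.35, 95% confidence interval 0.43 to 2.11, adjusted p = 0.0297, limma), a 2.40-fold higher level at D9. It was 1.15 among the Ctrl-siRNA arrays alone (adjusted p = 0.0524) and 1.38 among the Paral1-siRNA arrays alone (adjusted p = 0.0391), 1.03 after quantile normalization of all arrays (adjusted p = 0.0810), and 1.39 with each array's median subtracted (adjusted p = 0.0403). The 4 group means followed this order: D2 Paral1-siRNA 11.60 ± 0.81 (SD, n = 3), D2 Ctrl-siRNA 12.17 ± 0.78, D9 Paral1-siRNA 12.98 ± 0.24 and D9 Ctrl-siRNA 13.32 ± 0.17, each pair of neighbours overlapping in its arrays.

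*Slc38a1* passed with lower values at D9, where it was not above background on any array. Its experiment means were 6.35, 5.54 and 5.89 at D2 and 5.14, 5.14 and 5.13 at D9, and they did not overlap, as held in this direction for 39.7% of all genes. The difference was -0.79 (SE 0.20, 95% confidence interval -1.28 to -0.30, adjusted p = 0.0242, limma), and -0.67 with each array's median subtracted. Since the D2 values too lay under the limit of detection on 5 of 6 arrays, no fold is given.

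*Slc7a5* did not pass between the days. Its experiment means were 10.57, 12.09 and 9.87 at D2 and 10.31, 9.74 and 9.87 at D9, so that only experiment 2 stood well above the rest. The difference was -0.87 (SE 0.54, 95% confidence interval -2.18 to 0.45, adjusted p = 0.238, limma). Among Ctrl-siRNA arrays alone it was -1.63 and among Paral1-siRNA arrays alone -0.10, a gap that restates the D2 difference on which the genes were selected, as does the order of the groups. By group, *Slc7a5* was highest in D2 Ctrl-siRNA cells, at 11.62 ± 1.37 (SD, n = 3), and its means in D2 Paral1-siRNA, D9 Ctrl-siRNA and D9 Paral1-siRNA cells lay close together, at 10.07, 9.98 and 9.96. Those 3 groups overlapped in their arrays, and D2 Ctrl-siRNA cells overlapped D2 Paral1-siRNA cells.

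*Slc7a1* was likewise highest in D2 Ctrl-siRNA cells, with 9.94 ± 0.89 (SD, n = 3) in D2 Ctrl-siRNA cells against means of 9.12, 9.14 and 9.22 in D2 Paral1-siRNA, D9 Ctrl-siRNA and D9 Paral1-siRNA cells. Its day difference was -0.35 (SE 0.34, adjusted p = 0.432, limma), -0.80 among Ctrl-siRNA arrays and 0.10 among Paral1-siRNA arrays. The other 4 genes differed less from D2 to D9 than their experiments did, or came near background: *Slc7a11* 0.42 (adjusted p = 0.172), *Slc1a4* 0.25 (adjusted p = 0.525), *Slc3a2* 0.063 (adjusted p = 0.848) and *Slc38a2* -0.027 (adjusted p = 0.945), all from limma. Without experiment 1, *Slc3a2* (0.34, adjusted p = 0.0255) and *Slc1a4* (0.60, adjusted p = 0.0103) passed as higher at D9 and *Slc38a2* (-0.36, adjusted p = 0.0226) as lower.

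**Figure D3:**
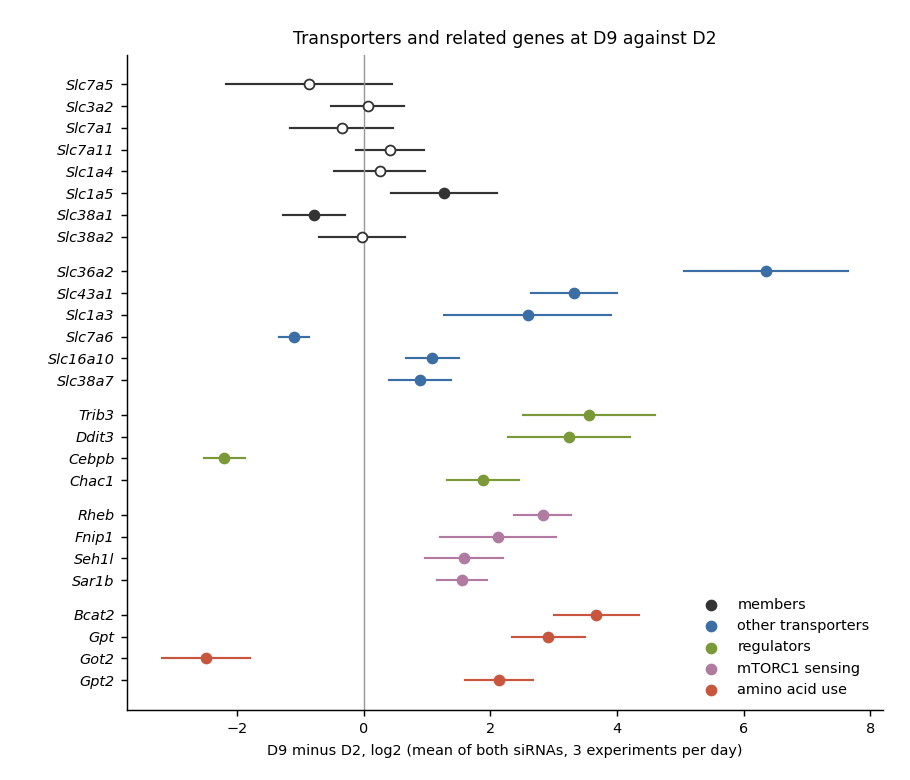
D9 minus D2 on the log2 scale, averaged over both siRNAs, for the 8 transporter genes (black) and for the named genes of the 4 related lists; bars are 95% confidence intervals over 3 experiments per day, and filled points passed an adjusted p under 0.05. Among the 8, *Slc1a5* at 1.27 and *Slc38a1* at -0.79 are filled, and *Slc36a2* at 6.35 lies farthest to the right.

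Other amino acid transporters were set beside the 8. Of 43, all measured, 24 were below the limit of detection on all arrays and 12 above it on all. With Paral1-siRNA, 13 were lower and 30 higher at D2 (median 0.03), and 10 lower and 33 higher at D9 (median 0.05), and 0 passed at D9. *Slc38a9*, the lysosomal arginine sensor of mTORC1, had a difference of 0.54 at D2 (SE 0.21) and was the 1 with an unadjusted p under 0.05 there (adjusted p = 1.00, limma). The share of all genes with such a p at D2 was not counted, so nothing is read from that number. At D9 the taurine carrier *Slc6a6* (-0.35, SE 0.14) and *Slc6a14* (0.21, SE 0.09), the latter at background, were the pair with an unadjusted p under 0.05 (adjusted p = 1.00 for both, limma).

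Between the days 8 of these 43 transporters rose and 11 fell in the limma fit, beside 14.7% and 25.7% of all genes, shares near those of the list, of which 24 genes were at background throughout. *Slc36a2*, a proton-coupled carrier of glycine, alanine and proline found in fat cells, measured 4.21 to 4.79 at D2, not above background on any array, and 9.31 to 12.09 at D9. That was at least 20.7-fold higher (log2 difference 6.35, SE 0.54, adjusted p = 6e-04), where the bound sets the D9 mean against the lowest value above background on the D2 arrays. *Slc43a1* (LAT3), which also carries leucine and other branched-chain amino acids but without SLC3A2, rose by 3.32 (adjusted p = 6e-04). Its values were 7.08 to 7.68 at D2 and 9.86 to 11.51 at D9, with no overlap. *Slc1a3*, a glutamate carrier, rose by 2.59 (adjusted p = 0.0122) and *Slc38a7*, a lysosomal glutamine carrier, by 0.89 (adjusted p = 0.0165). *Slc7a6*, another partner of SLC3A2, fell by 1.11 (adjusted p = 7e-04). *Slc16a10*, an aromatic amino acid carrier, had a log2 difference of 1.08 (adjusted p = 0.0047), with no D2 array above background.

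A further list held 17 genes related to the control of these transporters, among them the enzyme *Chac1*. The median siRNA difference over all genes was 0.015 at either day. Of the 17, 15 were lower with Paral1-siRNA at D2 (median -0.23) and 14 at D9 (median -0.10). None passed at D9, where *Cebpg*, a partner of ATF4, was the 1 with an unadjusted p under 0.05 (-0.39, SE 0.12, adjusted p = 1.00, limma). *Atf4*, named after its values were seen, measured 8.70, 9.04 and 8.83 in D2 Ctrl-siRNA cells and 8.53, 8.71 and 8.59 in D2 Paral1-siRNA cells. It was lower in all 3 D2 experiments, as were 14.6% of all genes. Between the days 11 of the 17 rose, 3 fell and 3 did not pass, where 14.7% of all genes rose and 25.7% fell. *Ddit3* (CHOP), a stress factor downstream of ATF4, rose by 3.24 (adjusted p = 0.0020) and *Chac1*, a glutathione-degrading enzyme, by 1.88 (adjusted p = 0.0021). *Trib3*, an ATF4 target that restrains AKT, was at least 5.82-fold higher (log2 difference 3.55, adjusted p = 0.0019), with no D2 array above background, and *Cebpb* fell by 2.20 (adjusted p = 2e-04).

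Of the mTORC1 sensing genes, 31 of 32 were measured. At D2, 18 were lower and 13 higher with Paral1-siRNA (median -0.09), and at D9, 20 and 11 (median -0.06). *Mtor*, the kinase itself, differed by -0.30 at D9 (SE 0.12, adjusted p = 1.00, limma). By day 10 of the 31 rose and 1 fell, beside 14.7% and 25.7% of all genes. The rises were led by *Rheb*, the small GTPase that activates mTORC1 (2.82, adjusted p = 2e-04, limma), and *Fnip1*, the partner of folliculin (2.12, adjusted p = 0.0069). *Seh1l*, of the GATOR complex (1.59, adjusted p = 0.0050), and *Sar1b*, a secretory GTPase known to bind leucine (1.54, adjusted p = 0.0012), followed.

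Enzymes that use the carried amino acids were measured for 16 of 21 listed. With Paral1-siRNA, 11 were lower and 5 higher at D2 (median -0.30) and 10 and 6 at D9 (median -0.07). *Odc1*, which makes polyamines from ornithine and so from arginine, measured 12.27, 13.02 and 12.62 with Ctrl-siRNA at D2 and 11.67, 12.36 and 11.06 with Paral1-siRNA. It was the 1 enzyme with an unadjusted p under 0.05 there (difference -0.94, SE 0.36, adjusted p = 1.00, limma). Again the share of all genes at D2 was not counted and nothing is read from the number. At D9, *Gclc*, the first enzyme of glutathione synthesis and a user of cysteine, differed by -0.26 (SE 0.11, adjusted p = 1.00, limma). Between the days 6 of the 16 enzymes rose and 5 fell, beside 14.7% and 25.7% of all genes. *Bcat2*, the mitochondrial enzyme that begins branched-chain amino acid breakdown, rose by 3.67 (adjusted p = 4e-04, limma) and *Gpt2* by 2.14 (adjusted p = 0.0012). *Gpt* was at least 2.75-fold higher (log2 difference 2.91, adjusted p = 5e-04), and *Got2*, the mitochondrial aspartate transaminase, fell by 2.49 (adjusted p = 0.0016).

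The likeness of other genes to *Slc7a5* was measured as Pearson's r over the 12 arrays, among 7780 genes whose SD was at least 0.5 and whose highest value exceeded the median of all genes. The arrays share their experiments and the 2 days, and the D2 arrays carry most of the variation, so r is a description of these arrays. Most alike were *Piezo1* (r = 0.93), a mechanically gated ion channel, *Lrrc59* (0.90), a ribosome-binding protein of the endoplasmic reticulum, *Mthfd2* (0.89), a mitochondrial folate enzyme, *Rhob* (0.89), a small GTPase, and *Bcar3* (0.88), an adaptor of focal adhesions. All 5 peaked in the Ctrl-siRNA cells of experiment 2, with *Piezo1* at 11.46 and *Lrrc59* at 14.01 there. Over the 6 D2 arrays their r was between 0.93 and 0.97, whereas over the 6 D9 arrays it was 0.61 for *Piezo1*, 0.25 for *Bcar3*, -0.09 for *Lrrc59*, -0.57 for *Rhob* and -0.60 for *Mthfd2*. Most opposite were *Medag* (r = -0.96), an adipogenesis gene of mesenteric fat, *Pnp* (-0.89), of purine salvage, and the predicted gene *Gm14032* (-0.86). *Medag* was lowest where *Slc7a5* was highest, at 6.81 in Ctrl-siRNA cells of experiment 2, and highest where *Slc7a5* was lowest, at 10.47 in Paral1-siRNA cells of experiment 3.

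**Figure D4:**
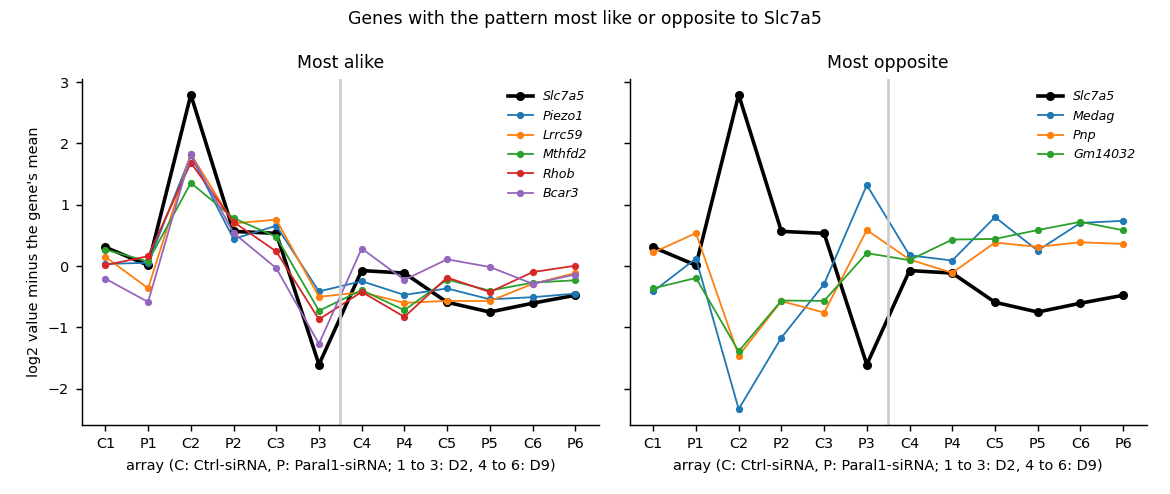
Log2 value minus the gene's own mean over the 12 arrays, for *Slc7a5* (black) with the 5 genes most like it (left) and the 3 most opposite (right), in array order with C for Ctrl-siRNA, P for Paral1-siRNA and the experiment number. The alike genes share the peak of *Slc7a5* in C2 and have their lowest D2 value in P3, and *Medag*, at r = -0.96, mirrors both.

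Among the 8 themselves, *Slc7a1* was the gene most like *Slc7a5*, with r = 0.87 over the 12 arrays, 0.85 at D2 and 0.88 at D9. *Slc1a5* ran with *Slc7a5* at D2 (r = 0.91 over 6 arrays) but not over all 12 (0.18), since it was higher at D9. The heavy chain *Slc3a2* had r = 0.05 with its light chain *Slc7a5*, and the remaining 4 genes ran between -0.46 and 0.19. *Slc38a2* ran opposite to *Slc1a4* (r = -0.85) and to *Slc3a2* (-0.83), in each case with experiment 1 at the end of the range. *Myc*, chosen here after its values were seen, had r = 0.72 with *Slc7a5*. It was lower with Paral1-siRNA in each D2 experiment, as were 14.6% of all genes. Its values were 10.96, 12.55 and 11.64 with Ctrl-siRNA against 10.74, 11.80 and 10.99, and its part in the *Slc7a5* values was not tested.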

How the data were processed

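Total RNA of 12 3T3-L1 cultures was hybridised to Affymetrix Mouse Transcriptome Arrays 1.0. The authors applied GC count normalization and signal space transformation (Affymetrix Expression Console 1.4.1), then RMA, for which the methods and the labels name different programs, and deposited log2 values per transcript cluster, which were used unchanged. Of 32814 clusters with a symbol, 30638 had 1 and 2176 several, which were left out. For 354 genes with several probe sets the brightest over the 12 arrays was kept. The *Paral1* transcript was not analysed here, and could not be used to check the labels.

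Each day was fitted with lmFit and eBayes (limma 3.58.1, R 4.3.3), D9 against D2 on the mean of the 2 arrays of each experiment, with Benjamini-Hochberg adjustment over 30176 genes. The script was tested on simulated data. Nothing in the sources used here says more of the replicates than that their experiments are numbered, and a p-value stands for the spread among these few arrays, whose number limits the precision.

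The genes, the related lists and the tests were chosen with earlier results of these data known. Named were all 8 transporters, up to 6 other transporters and 4 genes of each related list with the largest day difference past the threshold, up to 3 per list at an unadjusted p under 0.05 between siRNAs, *Fabp4*, *Mki67* and the genes most like *Slc7a5*. *Atf4* and *Myc* were added after their values were seen. Arrays of 1 experiment number deviated together from their group means over 15088 genes (r = 0.86, 0.77 and 0.71 at D2, 0.71, 0.78 and 0.81 at D9, against -0.79 to 0.41 for different numbers), so that the numbers in the titles pair them. Alternatives were the experiment as a block, quantile normalization again, median subtraction, a filter on dim probe sets, the mean of probe sets, a trend and robust prior, the methods' t-test, all 12 arrays in 1 fit, single arrays or single siRNAs, and leaving out each array or experiment.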

Additional observations from a re-analysis of the deposited data

Results flagged for a closer look

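*Slc7a1* was lower with Paral1-siRNA in all 3 experiments at D2 (log2 difference -0.83) and higher in all 3 at D9 (0.074). The difference between the days was not tested, since the D2 comparison chose the genes. The D9 value was -0.047 without the Paral1-siRNA array of experiment 4.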

How the results depend on the processing

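At D2, where the transporters were not tested, the number of transporters at least 1.5-fold lower (2) ran from 2 to 3 when arrays or experiments were left out, and the number higher (0) from 0 to 1, the 1 being *Slc1a4* without the Ctrl-siRNA array of experiment 1. At D9 no transporter passed under any of the 17 alternatives, and with the experiments paired as a replicate block it was again 0, while 123 genes met the joint limits with the block, 32 by the methods' t-test and 70 to 218 when arrays were left out, against 76. The block changed no call at an adjusted p under 0.05, and *Slc1a5* was the 1 transporter at an unadjusted p under 0.05 with it (0 without). Between the days, the number of transporters that rose (1) was 0 from Ctrl-siRNA arrays alone and after quantile normalization, and ran from 0 to 2 without single experiments, and the number that fell (1) from 0 to 2. *Slc1a5* passed without experiment 2 (adjusted p = 0.0025, limma) but not without experiment 1, 3, 4, 5 or 6 (0.0700, 0.0835, 0.0833, 0.0542 and 0.0971), and *Slc38a1* not without experiment 3, 4, 5 or 6 (0.0598, 0.0670, 0.0645 and 0.0764). Fewer experiments were tested there, and otherwise the cause was not tested.

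Small differences changed sign. At D9 *Slc7a5* was 0.063 and *Slc38a1* -0.022 after quantile normalization, and *Slc38a1* -0.015 after median subtraction. Without single arrays or experiments *Slc7a5* ran from -0.19 to 0.15, *Slc7a1* from -0.047 to 0.19, *Slc7a11* from -0.39 to 0.069, *Slc1a4* from -0.025 to 0.29 and *Slc38a2* from -0.011 to 0.14. Between the days *Slc3a2* was -0.077 in Ctrl-siRNA arrays and -0.057 after quantile normalization (-0.085 to 0.34 without single experiments), *Slc7a1* 0.099 in Paral1-siRNA arrays (-0.67 to 0.0088), and *Slc38a2* 0.021 in Paral1-siRNA arrays and 0.096 after median subtraction (-0.36 to 0.15). *Slc1a3* missed the threshold in Ctrl-siRNA arrays (2.04, adjusted p = 0.0504, limma) and *Slc38a7* without experiment 3 or 6 (0.0528 and 0.0610). Of all genes, 4429 rose and 7758 fell between the days, 36.3% of calls being higher, against 46.5% after median subtraction, which moved the median from -0.18 to -0.05, and 49.6% (3783 and 3846) after the filter on dim genes, which tested 16412. Without experiment 6, 4136 fell. Values near background, of *Slc7a11* and *Slc38a1*, limit what these arrays can show for both genes.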
